A study of Mus musculus with 6 samples.

Results

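The transcripts described here are those of the mitogen-activated protein kinase (MAPK) cascade and of the dual-specificity phosphatase genes in peritoneal macrophages of mice labelled Fbxo38 cKO and WT. They were chosen by name, as every row of the authors' deposited transcript table whose gene name begins with Mapk, with Map2k, Map3k or Map4k, or with Dusp and a digit. The rule found 163 transcripts of 58 genes, out of 33539 listed transcripts of 16358 genes. Libraries cKO 1 to 3 came from mice with Fbxo38 deleted in myeloid cells (cKO), and WT 1 to 3 from wild-type littermates. Cells of both genotypes were stimulated for 24 h with IL-4 plus IL-13 (20 ng/mL), which drive alternative (M2) polarization, so each comparison is between stimulated cells, and an unstimulated state was not analysed here. The sources used here do not give the Cre driver, the deleted exons, or the age and sex of the mice. FBXO38 brings substrates to a cullin-based ubiquitin ligase.

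In a MAPK cascade, a MAP kinase kinase kinase (MAP3K) phosphorylates a MAP kinase kinase (MAP2K), which phosphorylates the MAPK itself on a threonine and a tyrosine of its activation loop. MAP4Ks act above the MAP3Ks, scaffold proteins hold the tiers together, and dual-specificity phosphatases (DUSPs) remove the activating phosphates. The main MAPK branches are ERK (among others Mapk3), JNK (Mapk8, Mapk9, Mapk10), p38 (Mapk11 to Mapk14) and ERK5 (Mapk7). In macrophages they carry signals from Toll-like and growth factor receptors to inflammatory genes. Some genes found by name stand outside this cascade: Mapkap1 encodes SIN1, a subunit of the mTORC2 complex, and Dusp11 encodes a phosphatase that acts on RNA.

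The results turn on single isoforms, so some of the exons in which they differ are shown first. Sequences and positions are those of GENCODE M21 on GRCm38, matched by transcript identifier, since the sources used here do not name the authors' own build. Mapk8 and Mapk9 each have a pair of alternative coding exons of 72 bases. Each Mapk8 exon is in 2 of 5 coding transcripts, and the Mapk9 exons are in 4 and 3 of 7, so none of them marks a single transcript. In both genes the transcripts compared have 11 and 12 exons, so they also differ outside these exons. In the lines that follow, capitals mark the bases that differ from the other exon of the same gene. The Mapk8 exons lie on the minus strand, at chr14:33390242-33390313 for ENSMUST00000111943, which was listed higher in cKO, and at chr14:33390673-33390744 for ENSMUST00000111944. The Mapk9 exons lie on the plus strand, at chr11:49873836-49873907 for ENSMUST00000043321, which was listed lower in cKO, and at chr11:49874264-49874335 for ENSMUST00000020634, which is not a listed transcript.
Mapk8 ENSMUST00000111943: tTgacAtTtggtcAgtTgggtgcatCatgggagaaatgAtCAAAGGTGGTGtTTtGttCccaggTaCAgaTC
Mapk8 ENSMUST00000111944: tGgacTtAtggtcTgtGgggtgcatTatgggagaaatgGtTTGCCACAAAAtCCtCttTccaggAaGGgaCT
Mapk9 ENSMUST00000043321: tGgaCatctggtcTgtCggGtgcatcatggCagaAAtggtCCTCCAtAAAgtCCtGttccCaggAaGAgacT
Mapk9 ENSMUST00000020634: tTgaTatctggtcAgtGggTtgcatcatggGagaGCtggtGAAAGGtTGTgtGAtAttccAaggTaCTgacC
The 2 exons of Mapk8 differ at 27 of 72 bases and the 2 exons of Mapk9 at 25. Across the genes, the exon of Mapk8 ENSMUST00000111943 was closest to that of Mapk9 ENSMUST00000020634, at 79.2% identity, and the exon of Mapk9 ENSMUST00000043321 was closest to that of Mapk8 ENSMUST00000111944, at 81.9%. The Mapk8 transcript listed higher and the Mapk9 transcript listed lower therefore carry opposite members of the exon pair.

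Mapk8ip3 encodes JIP3, a scaffold of the JNK branch that also links cargo to kinesin motors. Its transcript ENSMUST00000115228, listed lower in cKO, is the only 1 of 10 coding transcripts with the same start to an exon but an earlier end, and it lacks the 27 bases in capitals of the 82-base exon at chr17:24906147-24906228 (minus strand). Mapk3 ENSMUST00000205657, also listed lower, lacks the whole 132-base coding exon at chr7:126764234-126764365 (plus strand), which 4 of 5 coding Mapk3 transcripts carry and which is shown in capitals throughout.
Mapk8ip3 ENSMUST00000088345: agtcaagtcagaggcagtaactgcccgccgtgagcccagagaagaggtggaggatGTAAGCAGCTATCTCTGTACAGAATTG
Mapk3 ENSMUST00000057669: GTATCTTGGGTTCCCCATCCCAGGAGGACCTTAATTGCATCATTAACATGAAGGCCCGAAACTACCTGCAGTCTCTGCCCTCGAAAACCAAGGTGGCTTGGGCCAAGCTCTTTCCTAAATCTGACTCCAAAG
Mapk8ip3 ENSMUST00000088345 and Mapk3 ENSMUST00000057669, which carry the full exons, are not listed transcripts.

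The libraries differed before any member is considered. Levels are in TPM as deposited, a unit scaled by transcript length and to the same total in each library. This unit hides how many reads stand behind a value, and depth is therefore unknown. Listed transcripts made up 6.57% of the TPM of WT 2, against 2.01% to 3.79% in the other 5 libraries. Summed TPM of the listed markers of mesothelial cells and fibroblasts (11 of 13 markers listed) was 17.7, 57.4 and 53.4 in cKO 1 to 3, against 56.2, 474.5 and 135.7 in WT 1 to 3. Listed markers of B cells, T cells, neutrophils, mast cells and dendritic cells summed to at most 1.12 TPM per cell type in any library. Not all of these markers are listed, and an unlisted marker has no level here, so these sums cannot show that such cells were absent. The labelled cell type could not be checked fully, because only 4 of 10 macrophage markers (Adgre1, Csf1r, Gata6 and Itgam) are listed, with sums of 2.11 to 6.48 TPM in cKO and 9.33 to 27.9 TPM in WT. The main Eif2s3y transcript, from the Y chromosome, was at 35.1 to 41.5 TPM in the 3 cKO libraries and at 50.7 TPM in WT 3, but listed at 0 in WT 1 and WT 2. The X-linked Xist showed the reverse pattern. Its highest listed form, ENSMUST00000127786, reached 30.3 TPM for WT 2 and 2.26 TPM for WT 1, with 0 for WT 3 and every cKO library. This sex-linked split sets WT 1 and WT 2 apart from all cKO libraries, so it is partly confounded with genotype. The 7 listed Fbxo38 transcripts summed to 7.04 ± 1.77 TPM in cKO and 11.0 ± 1.95 TPM in WT (SD, n = 3 each), with an exact two-sided permutation p of 0.2. This sum thus does not show the deletion labelled for cKO, but it pools forms with opposite directions. The assembled forms MSTRG.8674.5 and MSTRG.8674.6 were lower in cKO without overlap, with limma adjusted p of 0.209 and 0.134. The authors' log2 fold changes were positive for MSTRG.8674.1, MSTRG.8674.2 and MSTRG.8674.3 (2.36, 1.36 and 10.5). A sum over such forms cannot decide whether an exon was lost, and this was not tested. In each result on bulk RNA here, fewer cells of a type and less RNA per cell cannot be told apart. The part of the cell type markers and of the sex-linked split in the results that follow was not tested.

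The listed cascade transcripts were mostly minor forms at low level. The highest TPM in any library had a median of 0.38 over the 163, against 0.32 over all listed transcripts, and it stayed under 1 TPM for 136 of them (83.4%, against 78.7% of all listed). The largest single value was 5.94 TPM, for Mapkap1 in WT 2. No member averaged 5 TPM in either genotype. Of the 163, 70 (42.9%) were above 0 in 1 library only, against 36.0% of all listed transcripts, so their direction rests on that library.

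Of 158 members matched to GENCODE M21, 58 (36.7%) are annotated as protein coding, 44 (27.8%) as processed transcripts without a coding sequence, 38 (24.1%) as retained introns and 18 (11.4%) as subject to nonsense-mediated decay. Among all matched listed transcripts the shares were 42.0%, 13.0%, 24.3% and 7.32%. Only 15 members (9.49%, against 16.1% of all matched) are marked as a principal isoform of their gene. No listed transcript of Mapk3, Mapk8, Mapk9, Mapk14, Map2k1 to Map2k7, Dusp1 or Dusp6 is marked so. What follows therefore describes side isoforms of these genes and not their total expression.

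By the authors' fold change, 71 of the 163 members were listed as higher in cKO (43.6%) and 92 as lower (56.4%). All listed transcripts had 39.4% higher and 60.6% lower, so the split of the members lay close to that of the table. Each listed transcript has an absolute log2 fold change of at least 1.0001 in the authors' deposited table, which was thus selected on this contrast. The members nearest to that limit were a Map3k4 transcript at 1.00 and a Mapk8ip3 transcript, ENSMUST00000178969, at -1.01. By tier, the MAPKs had 13 transcripts higher and 21 lower, the MAPK-activated kinases 0 and 5, the MAP2Ks 8 and 10, the MAP3Ks 20 and 15, the MAP4Ks 13 and 14, the scaffolds and adaptors 5 and 14, and the phosphatases 12 and 13. These splits are descriptions and were not tested. Judged by mean TPM without WT 2, members were higher in 74 and lower in 67 cases, and in the libraries with Y-linked transcripts (cKO 1 to 3 and WT 3) they were higher in 73 and lower in 57. The remaining 22 and 33 members were then equal in both genotypes. Without WT 2 the excess of lower over higher members was absent, as it nearly was over all listed transcripts (48.8% higher and 51.2% lower of those unequal). Part of this drop was fixed in advance, since members above 0 in WT 2 alone count as lower with it and as equal without it. No other single library was left out for this count, so the drop cannot be called particular to WT 2.

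**Figure D1:**
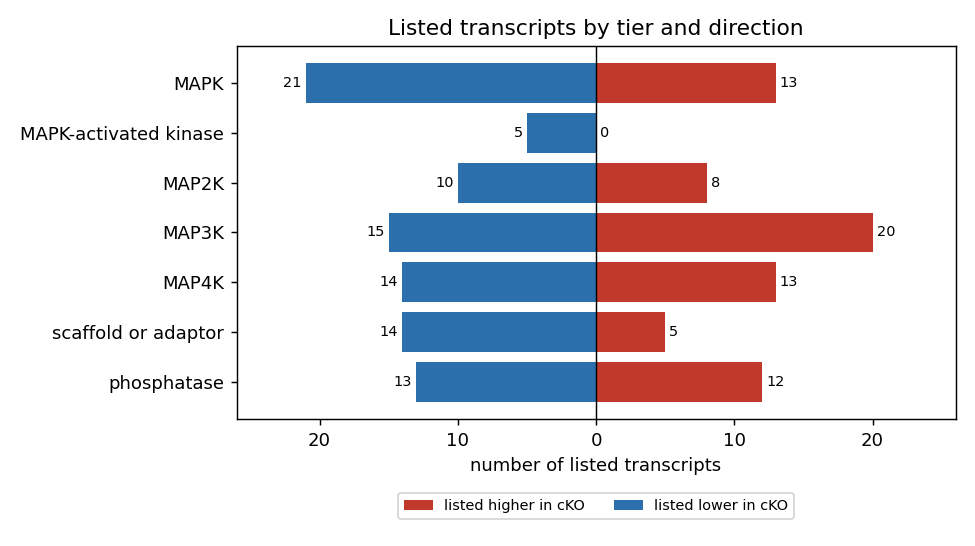
Number of listed transcripts per tier of the cascade, to the right those listed higher and to the left those listed lower in cKO by the authors' fold change. The MAPK-activated kinases have 0 higher and 5 lower, and only the MAP3Ks have more higher (20) than lower (15).

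WT 2 held more of the members than any other library. Members above 0 numbered 59, 67 and 49 in cKO 1 to 3 and 54, 86 and 66 in WT 1 to 3. WT 2 was the highest library for 56 members (34.4%), against 37.4% of all listed transcripts. In WT 2 alone, 22 members were above 0 (13.5%), near the 12.3% of all listed transcripts. Next came cKO 2, the highest library for 36 members (22.1%, against 13.7% of all listed).

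**Figure D2:**
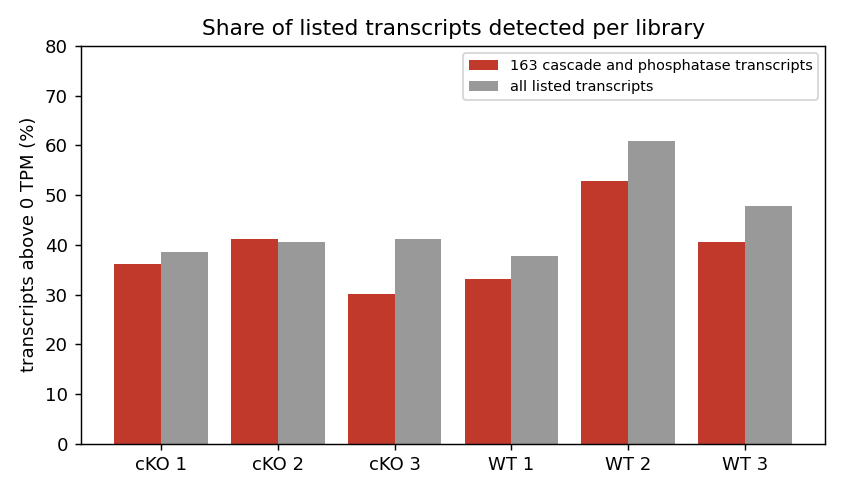
Percentage of transcripts above 0 TPM in each library, for the 163 members (red) and for all 33539 listed transcripts (grey). WT 2 has the highest share in both sets, at 52.8% and 60.8%.

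In the authors' deposited table, 3 of the 163 members passed an adjusted p of 0.05 (1.84%), against 0.268% of all listed transcripts (0.0984% higher and 0.17% lower). They were 1 kinase, 1 scaffold and 1 phosphatase transcript, of Mapk8, Mapk8ip3 and Dusp11. Mapk8 and Dusp11 had values of 0 throughout WT, and Mapk8ip3 had values of 0 throughout cKO. These contrasts were also present against WT 3, the WT library with Y-linked transcripts, and against WT 2. At an unadjusted p under 0.05 there were 9 members, 3 higher and 6 lower, beside a background of 1.9% higher and 4.22% lower. The groups did not overlap for 5 members that were higher (3.07%, background 2.39%) and 11 that were lower (6.75%, background 8.11%). These shares were near the background. Here and below, overlap was judged on TPM as deposited, and it was not checked under another scaling. With 3 libraries against 3, an exact permutation test gives no p below 0.1, which is the value for each of these 16 transcripts.

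The limma test asked for at least 1 TPM in at least 3 of the 6 libraries, and 4 of the 163 members met that (2.45%, against 6.11% of all listed). They were transcripts of Dusp11, Map2k2, Mapkap1 and Map4k4. None passed at an adjusted p of 0.05, where 0 of the 2050 tested transcripts did (0.0%). At an unadjusted p under 0.05, 1 member was higher, that of Dusp11, and 0 were lower, beside 6.1% higher and 16.9% lower among all tested. Dusp11 met the filter through its 3 cKO libraries alone, so it had to differ to be tested, and its count supports nothing. Without WT 1, 2 were higher and 2 lower, and without cKO 3, 2 were higher and 0 lower. With no filter on low values, 10 members had an unadjusted limma p under 0.05, 4 higher and 6 lower, or 6.13% against 3.72% of all listed, and the lowest adjusted p was 0.453.

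Among the MAPKs, the JNK genes Mapk8 and Mapk9 were listed in opposite directions. Mapk8 encodes JNK1. Its transcript ENSMUST00000111943 was at 1.36, 2.29 and 0.94 TPM in cKO 1 to 3, with 0 in each of WT 1 to 3. All 3 cKO libraries thus lay above all 3 WT libraries, with a cKO mean of 1.53 ± 0.691 TPM (SD, n = 3). In the authors' deposited table its log2 fold change was 7.91 with an adjusted p of 0.000226, a size that rests on the zeros of WT. With cKO 3 under 1 TPM it missed the filter of the limma test. In the unfiltered limma fit its log2 fold change was 1.30 ± 0.30 (SE) on the log2(TPM + 1) scale, adjusted p 0.453.

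Mapk8 had 2 more listed transcripts, which were likewise listed as higher. ENSMUST00000111944, which carries the other 72-base exon, was at 0, 0 and 0.15 TPM in cKO and at 0 in WT. A retained intron form, ENSMUST00000127143, was at 0, 0.31 and 0.27 TPM in cKO and 0, 0.09 and 0 TPM in WT. Listed Mapk8 transcripts together reached 1.36, 2.6 and 1.36 TPM in cKO and 0, 0.09 and 0 TPM in WT. ENSMUST00000111943 was the highest of the 3 in each cKO library.

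Mapk9, which encodes JNK2, went the other way. Its coding transcript ENSMUST00000043321 was at 0.18, 0.24 and 0 TPM in cKO and at 0.68, 1.09 and 1.76 TPM in WT, with no overlap. The means were 0.14 ± 0.125 TPM in cKO and 1.18 ± 0.545 TPM in WT (SD, n = 3 each). Its second listed transcript, the non-coding ENSMUST00000144857, was at 0.07, 0.31 and 0.16 TPM in cKO and 0.39, 0.63 and 0.38 TPM in WT, again without overlap. For both forms every WT library lay above every cKO library, and WT 2 was the highest of them for the non-coding form only. Neither was called in the authors' deposited table, where the coding form had a log2 fold change of -2.68, an unadjusted p of 0.0271 and an adjusted p of 0.648. Mapk10, the JNK gene known for its expression in brain, had 5 listed transcripts at 0.16 TPM or less.

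In the ERK branch, Mapk3, which encodes ERK1, had 1 listed transcript. ENSMUST00000205657 was listed at 0 in cKO 1 to 3 and at 0.48, 0.63 and 0.23 TPM in WT 1 to 3. Every WT library thus lay above the cKO libraries, at under 1 TPM. This is the form without the 132-base exon, annotated as incomplete. In the authors' deposited table its unadjusted p was 0.0413 and its adjusted p 1.00.

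The p38 genes had low listed transcripts in both directions. Mapk14 encodes p38 alpha, the main p38 of macrophages, and its 4 listed transcripts, 2 higher and 2 lower, stayed at 0.44 TPM or less. Mapk11 ENSMUST00000088823, the principal isoform of p38 beta, was at 0.14, 0.02 and 0.05 TPM in cKO and 0.25, 0.64 and 0.4 TPM in WT. The non-coding Mapk12 ENSMUST00000230509 was listed at 0 in cKO and at 0.22, 0.64 and 0.42 TPM in WT. In both of these the lowest WT value lay above the highest cKO value, at under 1 TPM throughout, and neither passed an adjusted threshold. Mapk7, which encodes ERK5, had 6 listed transcripts, 2 higher and 4 lower. The highest of them, the non-coding ENSMUST00000139663, was at 0.16, 1.15 and 0 TPM in cKO and 0, 0 and 0.58 TPM in WT.

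The kinases that MAPKs activate had 5 listed transcripts, all listed as lower. Mapkapk5, which encodes the kinase PRAK, had 4. Its non-coding ENSMUST00000153763 was listed at 0 in cKO 1 to 3 and was at 2.22, 0 and 4.1 TPM in WT 1 to 3. WT 2, at 0, fell together with the cKO libraries, so the groups overlap. The other 3 Mapkapk5 transcripts were at 0 in cKO and in WT 1, and their highest values, 0.5 to 0.62 TPM, were in WT 2. The single Mapkapk3 transcript, a non-coding form, was at 0, 0.27 and 0 TPM in cKO and 0, 0.86 and 0 TPM in WT. Mapkapk2, the main p38-activated kinase of macrophages, has no listed transcript.

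The MAP2K tier had 18 listed transcripts of all 7 genes, Map2k1 to Map2k7, with 1 tested. Map2k1 and Map2k2 encode MEK1 and MEK2, which activate ERK. Map2k2 ENSMUST00000136743, a coding form annotated as incomplete, was at 1.6, 2.77 and 0.67 TPM in cKO and 1.21, 0 and 0 TPM in WT. WT 1 overlapped the cKO range. The log2 fold change was 0.96 ± 0.46 (SE) on the log2(TPM + 1) scale with a limma adjusted p of 0.211. The assembled Map2k2 MSTRG.1925.2 was lower without overlap, at 0, 0 and 0.09 TPM in cKO and 0.25, 0.2 and 0.21 TPM in WT.

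The other MAP2K transcripts stayed under 0.8 TPM except 1 of Map2k7, an activator of JNK. This non-coding Map2k7 form, ENSMUST00000207247, was at 1.37, 0.57 and 0 TPM in cKO and 0, 0 and 0.41 TPM in WT. Map2k1 had 2 retained intron forms in opposite directions, at 0.18 TPM or less in cKO and 0.55 TPM or less in WT. Map2k3 and Map2k6, which activate p38, had 5 listed transcripts, 1 higher and 4 lower, with no library above 0.67 TPM. Map2k4, which activates JNK and p38, and Map2k5, which activates ERK5, each had 1 transcript higher and 1 lower.

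The MAP3K tier was the largest, with 35 transcripts of 16 genes, and none was tested or called. Map3k7 encodes TAK1, which acts downstream of Toll-like and interleukin-1 receptors. All of its 4 listed transcripts, annotated as non-coding, were listed as higher. They summed to 0.64, 1.16 and 0.2 TPM in cKO and 0, 0.74 and 0.26 TPM in WT, so the groups overlap. Map3k3, which encodes MEKK3, had 3 of 3 higher. Its principal isoform ENSMUST00000002044 was at 0.11, 0 and 0.88 TPM in cKO, so cKO 2 was at 0 like the 3 WT libraries. Map3k8 encodes TPL2, which links Toll-like receptors to ERK in macrophages. Its listed transcript, a non-coding form, was at 0, 1.73 and 0.48 TPM in cKO and 0.75, 0 and 0 TPM in WT. Map3k5, which encodes the stress kinase ASK1, had 1 listed transcript at 0.22 TPM or less, and those of Map3k1 stayed at 0.4 TPM or less.

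The only MAP3K transcript whose groups did not overlap was a retained intron form of Map3k2, which encodes MEKK2. ENSMUST00000234576 was at 0.03, 0.06 and 0 TPM in cKO and 0.19, 0.43 and 0.23 TPM in WT. In the authors' deposited table its log2 fold change was -3.05, with an adjusted p of 0.675. An assembled transcript of Map3k12, MSTRG.6732.4, was listed at 0 in cKO and at 0, 0.27 and 0.49 TPM in WT.

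In the MAP4K tier, Map4k4 had 5 of 6 and Map4k5 3 of 5 listed transcripts lower. Map4k4 ENSMUST00000192509, a principal isoform, was at 1.13, 0.54 and 0.8 TPM in cKO and 0.74, 4.35 and 2.49 TPM in WT. WT 1 lay within the cKO range while WT 2 was highest. The log2 fold change was -0.82 ± 0.48 (SE) on the log2(TPM + 1) scale with a limma adjusted p of 0.262, and it was -0.45 without WT 2 and -1.26 without WT 1. The assembled Map4k4 MSTRG.193.3 was at 0.68, 0 and 0.46 TPM in cKO and 0.73, 1.25 and 1.88 TPM in WT, just without overlap. Map4k2, with 13 listed transcripts the gene with the most, had 9 higher and 4 lower, and 12 of them stayed at 0.55 TPM or less in every library.

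Among scaffolds and adaptors, Mapk8ip3 had 7 of 8 listed transcripts lower in cKO. The called ENSMUST00000115228 was listed at 0 in cKO 1 to 3 and was at 0.11, 0.74 and 1.14 TPM in WT 1 to 3. WT 1 was thus close to 0, the other WT libraries were higher, and the WT mean was 0.663 ± 0.519 TPM (SD, n = 3). In the authors' deposited table its log2 fold change was -8.29 with an adjusted p of 9.79e-05. In the unfiltered limma fit the log2 fold change was -0.68 ± 0.27 (SE) on the log2(TPM + 1) scale, adjusted p 0.453. Listed Mapk8ip3 transcripts together reached 0.39, 0.69 and 0 TPM in cKO and 0.63, 2.75 and 2.94 TPM in WT, with cKO 2 just above WT 1.

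Mapkap1, the SIN1 gene, had the most abundant listed transcript, the principal isoform ENSMUST00000113126. It was at 1.61, 0.48 and 0.95 TPM in cKO and 1.21, 5.94 and 3.1 TPM in WT. The groups overlapped, with WT 1 under cKO 1. The log2 fold change was -1.02 ± 0.51 (SE) on the log2(TPM + 1) scale with a limma adjusted p of 0.217, and it was -0.62 without WT 2 and -1.44 without WT 1. A non-coding Mapkap1 transcript, ENSMUST00000129633, was listed in the other direction, at 2.6, 2.94 and 0.45 TPM in cKO and 0.96, 0 and 0 TPM in WT.

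**Figure D3:**
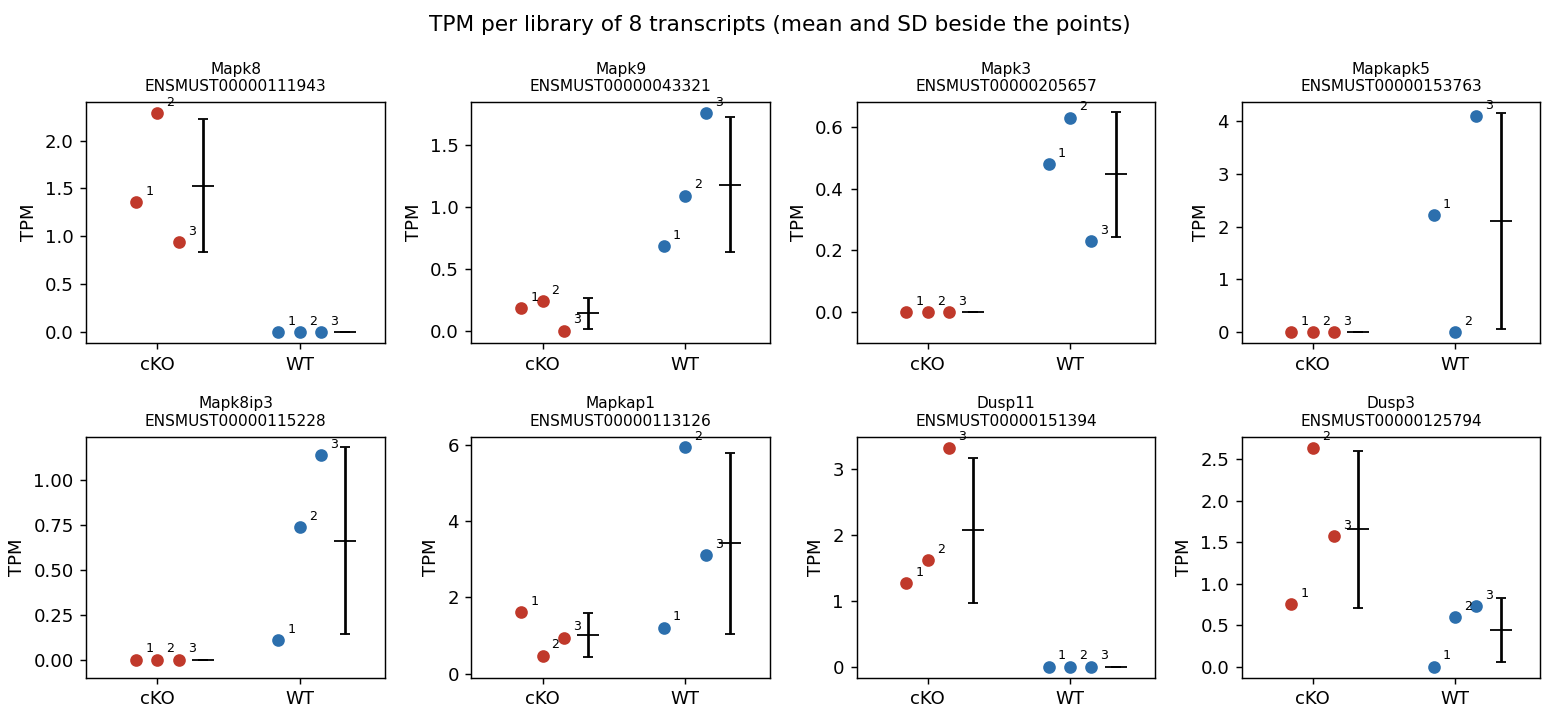
TPM per library (points, numbered by library) with mean and SD for 8 transcripts, cKO left and WT right, each panel on its own scale. Mapk8 and Dusp11 are above 0 only in the 3 cKO libraries, Mapk3 and Mapk8ip3 only in the 3 WT libraries, Mapk9 and Dusp3 do not overlap between genotypes, and Mapkapk5 and Mapkap1 do.

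The phosphatases had 25 listed transcripts of 10 genes. Dusp11 had 1 called transcript, the non-coding ENSMUST00000151394, at 1.27, 1.61 and 3.32 TPM in cKO 1 to 3, with 0 in each WT library. All cKO libraries lay above 1 TPM, with a mean of 2.07 ± 1.10 TPM (SD, n = 3). The authors' deposited table gives a log2 fold change of 7.65, adjusted p 0.00207. The value was 1.56 ± 0.35 (SE) on the log2(TPM + 1) scale by limma, adjusted p 0.137. A retained intron form of the same gene, ENSMUST00000139164, was listed at 0 in cKO and at 0.65, 0.14 and 0.9 TPM in WT. Listed Dusp11 transcripts together summed to 1.5, 1.61 and 3.32 TPM in cKO and 1.23, 1.12 and 0.9 TPM in WT, a smaller difference than that of the called form.

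Dusp3 encodes VHR, a phosphatase of ERK and JNK. Its coding transcript ENSMUST00000125794, annotated as incomplete, was at 0.75, 2.64 and 1.57 TPM in cKO and 0, 0.6 and 0.73 TPM in WT, with cKO 1 just above WT 3. It was not called in the authors' deposited table, where the adjusted p was 0.953. Dusp7, which encodes a phosphatase of ERK, had 2 listed transcripts, both listed at 0 in WT. The non-coding Dusp7 ENSMUST00000193878 was at 0.12, 0.38 and 1.03 TPM in cKO, and the authors' deposited table gives it an unadjusted p of 0.00941, adjusted 0.479. Dusp13 ENSMUST00000127051, a non-coding form of a gene known from testis and skeletal muscle, was at 0.64, 0.16 and 0.44 TPM in cKO and at 0 in each WT library. The non-coding Dusp19 ENSMUST00000125033 was at 0 in each cKO library and at 0.1, 0.19 and 0.1 TPM in WT.

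Dusp16 encodes MKP-7, a phosphatase of JNK and p38. Its principal isoform ENSMUST00000100857 was at 0.36, 0.82 and 0.36 TPM in cKO and 0.7, 1.55 and 1.69 TPM in WT, so WT 1 overlapped cKO 2. For this form the authors' deposited table gives a log2 fold change of -1.01, adjusted p 0.708. Dusp1, the immediate early phosphatase that limits p38 and JNK in activated macrophages, had 1 listed transcript. This Dusp1 retained intron was at 0.16, 0.21 and 0.08 TPM in cKO and 0, 0 and 0.09 TPM in WT. Dusp6, the cytoplasmic phosphatase of ERK, had 2 non-coding listed transcripts, of which ENSMUST00000220218 was at 0, 0.15 and 0.45 TPM in cKO and 0, 1.48 and 0.92 TPM in WT. Dusp2, Dusp4, Dusp5 and Dusp10 have no listed transcript.

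Opposite directions within a gene were common. Of the 43 member genes with 2 or more listed transcripts, 29 (67.4%) had transcripts in both directions, against 65.7% of the 7329 such genes in the table. The share was near that of the table. The other 14 genes had transcripts in 1 direction, among them Mapk8, Map3k3 and Map3k7 higher and Mapk9, Mapk12 and Mapkapk5 lower.

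**Figure D4:**
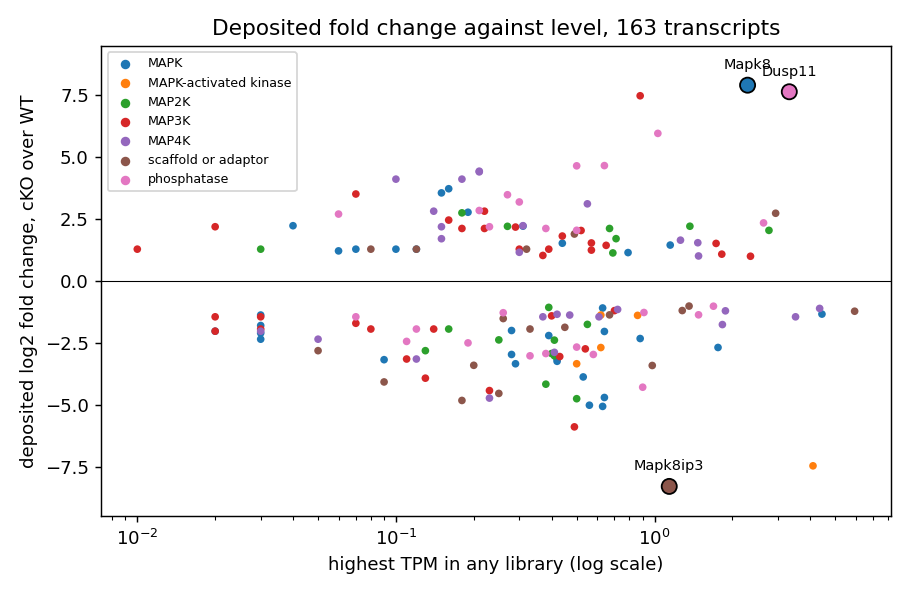
Log2 fold change of cKO over WT in the authors' deposited table against the highest TPM in any library (log axis) for the 163 members, coloured by tier. The 3 transcripts called there (large, outlined) are at 7.91, 7.65 and -8.29 and have highest values of 2.29, 3.32 and 1.14 TPM.

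The authors also deposited a second list of 17 transcripts, without a header or a stated rule, of which 5 are members. All 17 are lower in cKO and have a p under 0.05 as listed there. For 14 of them, the values are the log2 fold change and the unadjusted p of the main table, within 0.0001 for the log2 fold change, and 3 of the 17 pass the adjusted threshold of the main table. The members with the values of the main table are Mapk8ip3 ENSMUST00000115228, Mapk9 ENSMUST00000043321 and Mapk3 ENSMUST00000205657. The members Mapkap1 ENSMUST00000113126 and Mapkapk5 ENSMUST00000153763 stand there without a gene name and with other values. For Mapkap1 the second list of the authors' deposited table gives a log2 fold change of -1.55 and a p of 0.0285, against -1.22 and 0.0640 in the main table. For Mapkapk5 it gives -7.28 and 0.0269, against -7.46 and 0.0563. In the main table neither of these is under 0.05 before adjustment. The called Mapk8 and Dusp11 transcripts, both higher in cKO, are not in the second list, and neither are the lower members of Map3k12, Map3k2 and Dusp16 with an unadjusted p under 0.05.

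Other genes of the pathway were read from lists chosen for it. The regulators above the MAP3Ks, such as RAS, RAF and RAC proteins and their adaptors, had 61 listed transcripts of 28 of 37 genes, 18 higher and 43 lower. The authors' deposited table called 0 of them. Of 6 tested, 4 were higher and 2 lower (median log2 fold change 0.47), and 0 passed limma or had an unadjusted p under 0.05. Assembled transcripts of the GTPase genes Rap1b and Cdc42 were higher without overlap, at 1.77, 2.28 and 1.51 TPM in cKO and 1.37, 0.9 and 1.16 TPM in WT for Rap1b. The Cdc42 transcript was at 3.71, 1.33 and 1.35 TPM in cKO and 1.03, 1.23 and 0.89 TPM in WT. By limma the log2 fold changes of Rap1b and Cdc42 were 0.41 ± 0.34 and 0.53 ± 0.41 (SE), with adjusted p of 0.358 and 0.335. Lack of overlap was not counted over this list or those that follow. Over all listed transcripts, 2.39% were higher and 8.11% lower without overlap. Rac1 ENSMUST00000100489, a coding form of the GTPase that drives membrane ruffling, was at 3.69, 47.1 and 9.06 TPM in cKO and 32.9, 74.0 and 61.7 TPM in WT. cKO 2 lay above WT 1, and the log2 fold change was -2.05 ± 0.91 (SE) with a limma adjusted p of 0.209. The downstream kinases of the RSK, MSK and MNK families had 17 listed transcripts, 6 higher and 11 lower, with 0 tested and 0 called.

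Transcription factors that MAPKs act on and immediate early genes had 59 listed transcripts of 19 of 26 genes, 21 higher and 38 lower, with 0 called in the authors' deposited table. Of 8 tested, 7 were lower and 1 higher, and 0 passed limma's adjusted threshold. Of the 7, 3 are Myc transcripts, and all 7 peaked in WT 2. The median log2 fold change of the 8 was -0.88, which is the value of 2 Myc transcripts with identical levels. Over all 2050 tested the median was -0.39, but it was 0.12 without WT 2 and 0.33 with median-ratio scaling. How far WT 2 sets the median of the 8 was not tested. At an unadjusted limma p under 0.05 there was 1 of the 8 in each direction, Mef2a lower and Egr2 higher, beside 6.1% higher and 16.9% lower among all tested. Mef2a ENSMUST00000076325, a p38 and ERK5 target factor, was at 0.16, 1.05 and 0.83 TPM in cKO and 1.37, 4.37 and 2.75 TPM in WT, without overlap. Its log2 fold change was -1.15 ± 0.44 (SE) with a limma adjusted p of 0.209. Egr2 ENSMUST00000127820, an early growth response factor induced by IL-4 in macrophages, was at 1.85, 3.09 and 4.01 TPM in cKO and 1.72, 0 and 0 TPM in WT, just without overlap. Its log2 fold change was 1.48 ± 0.50 (SE) with a limma adjusted p of 0.209. The authors' deposited table gives this Egr2 transcript an unadjusted p of 0.344 and an adjusted p of 0.9998. Egr1 ENSMUST00000165033, an immediate early gene of the ERK branch, was at 0.69, 1.05 and 0.78 TPM in cKO and 0.8, 4.68 and 2.51 TPM in WT, with WT 1 inside the cKO range. Myc had 3 tested transcripts, 2 of which carry identical values in all 6 libraries. In the third, ENSMUST00000159327, the groups barely separated, at 1.46, 1.38 and 0.72 TPM in cKO and 1.47, 5.58 and 3.96 TPM in WT.

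The last list was drawn up for other feedback inhibitors, but it also holds the MEK1 adaptor gene Lamtor2, which is not an inhibitor. Its counts therefore mix both roles. It had 27 listed transcripts, 9 higher and 18 lower, with 3 tested and 0 called or passing limma. Zfp36l2 ENSMUST00000060366, which encodes an RNA-binding protein that promotes mRNA decay, was at 8.36, 5.11 and 5.15 TPM in cKO and 14.4, 35.8 and 10.3 TPM in WT. The groups did not overlap, and the log2 fold change was -1.39 ± 0.61 (SE) on the log2(TPM + 1) scale with a limma adjusted p of 0.209. Lamtor2 ENSMUST00000145172, a retained intron form of an endosomal MEK1 adaptor gene, was at 7.69, 4.93 and 4.38 TPM in cKO and 2.69, 4.33 and 2.84 TPM in WT, without overlap, and with a limma adjusted p of 0.323.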

How the data were processed

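RNA was measured in 6 libraries, 3 cKO and 3 WT. Per the labels' protocols, stranded poly(A) libraries were sequenced, and fastp (trimming), HISAT2 (alignment) and StringTie (assembly) were run. The submitters' processing notes name RSEM and DESeq2, with no version. The build is not given in the sources used here. Deposited values are TPM for each transcript and library. For cKO over WT, the authors deposited a fold change (ratio), its log2 form, and p-values before and after adjustment. 0 columns of per-sample values were unmatched.

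Transcripts with at least 1 TPM in at least 3 of 6 libraries were tested on log2(TPM + 1), which understates the change of low transcripts, with limma 3.58.1 (trend, two-sided, Benjamini-Hochberg at 0.05) in R 4.3.3, over all listed transcripts, with group as the only term. The listed transcripts were preselected on the fold change of this same contrast, and the p-values are not corrected for that selection. The test was also run on simulated independent normal values. These had neither the many zeros, nor an outlying library such as WT 2, nor the preselection of the real data. That run therefore cannot show how the test behaves under these conditions. The labels speak of littermate pairs but not of which numbers pair, and p-values measure the spread between these samples. Classes, exons and sequences came from GENCODE M21. Members, tiers, lists and tests were chosen with earlier results of these data known. Named were the transcripts called by either test, the tested ones, any averaging at least 5 TPM, up to 2 per gene of the central cascade genes and those in the authors' second list; others named were chosen after their values were seen. Values of 1 gene, which the counts include, are not reported here. Alternatives were the replicate block, leaving out each library, 2 other scalings, a pseudocount of 0.1, other filters (none, 2 TPM) and reference transcripts only. Python 3.11.15, pandas 2.3.3, numpy 2.4.6, scipy 1.17.1 and matplotlib 3.10.9 were used.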

Additional observations from a re-analysis of the deposited data

How the results depend on the processing

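In the limma test of the members, 0 passed an adjusted p of 0.05 under each alternative that tested any, and the 4 tested log2 fold changes kept their direction under each of these. The stricter filter of 2 TPM left no member to test. The number higher at an unadjusted p under 0.05, 1 as reported, was 2 with median-ratio scaling and 4 with no filter, and it ranged from 1 to 2 when each library was left out. The number lower, 0 as reported, was 6 with no filter and ranged from 0 to 2 when each library was left out, with 2 without WT 1. The 2 higher ones came without WT 1 and without cKO 3. The median log2 fold change of all tested transcripts, -0.39, ranged from -0.33 to 0.12 when each library was left out (0.12 without WT 2) and was 0.33 with median-ratio scaling and 0.41 with the filter of 2 TPM, and the cause was not tested. With median-ratio scaling the log2 fold changes of Mapkap1 and Map4k4 were -0.29 and -0.14, against -1.02 and -0.82 as reported. That scaling divided the TPM of WT 1 to 3 by 0.83, 2.71 and 1.51 and those of cKO 1 to 3 by 0.57, 0.91 and 0.75. Groups that do not overlap in TPM as deposited may overlap after it, which was not checked. With a pseudocount of 0.1, the values were 4.32 for Dusp11 and 2.72 for Map2k2, against 1.56 and 0.96 as reported, and -1.54 for Mapkap1 and -1.26 for Map4k4. By mean TPM, an alternative chosen after seeing the data, 57 members were lower in the libraries with Y-linked transcripts, against 92 in all 6, with 1 WT library left. Members above 0 only in the libraries left out then count as equal, so part of this fall was fixed in advance. The replicate number as a block gave the same counts, 1 higher and 0 lower, with an adjusted p of 0.202 for Dusp11. Over the tested transcripts, the deviations of same-numbered libraries from the mean of their genotype correlated at 0.135, -0.137 and -0.109. With 3 libraries a group, these values cannot settle which libraries pair, and the numbers were not taken to pair the samples. TPM carry no depth, so what counting error alone allows for values under 1 TPM is unknown.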
